A study of Mus musculus with 6 samples.

Results

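The Hedgehog response was followed through 9 genes found among the 24568 genes of the deposited matrix. They were chosen by name for their place in the pathway, with earlier results of these data known. They are the receptors Ptch1 and Hhip, the signal transducer Smo, the transcription factors Gli1, Gli2 and Gli3, and the forkhead factors Foxf1, Foxf2 and Foxl1. Cells came from small intestine of C57/BL6 embryos with the Pdgfra-H2BGFP allele, in which nuclear GFP reports the activity of Pdgfra, a receptor gene of mesenchymal cells. All 6 samples share this allele, so none serves as a control without it. Each sample pools embryos of several ages: 3 samples hold E15.5 (2 pooled replicates) and E16.5 (2), and 3 hold E13.5 (4), E14.5 (3) and E18.5 (2). In each trio, 2 samples are all live cells and 1 is enriched for cells positive for CD31, CD45 or Epcam, or high in PDGFRA-GFP.

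Hedgehog ligands are made by the gut epithelium and act on the mesenchyme beneath it. Ligand binding to Ptch1 lifts its block on Smo, and Gli factors then turn on targets, among them Ptch1, Hhip and Gli1 themselves, so that the levels of these genes are often read as a measure of the response. Foxf1, Foxf2 and Foxl1 are mesenchymal forkhead factors reported downstream of Hedgehog in the gut, where Foxl1 marks cells close to the epithelium.

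Promoters are shown for 3 genes that were at least 2-fold higher in the same barcode sets below (Ptch1, Hhip and Foxf2) and for Gli3, which was lower there. RefSeq promoter entries (GRCm38.p6, 250 bases before to 50 after a start) were matched for 6 of the 9 genes. The windows are chr13:63565686-63565985 on the minus strand for Ptch1, chr8:80057959-80058258 on the minus strand for Hhip, chr13:31625566-31625865 on the plus strand for Foxf2, and chr13:15463473-15463772 on the plus strand for Gli3. The Ptch1 window lies inside the annotated span of the gene and thus shows 1 of its starts. Capitals mark CCACCC or its reverse complement GGGTGG, the inner bases of the GLI consensus GACCACCCA:
Ptch1: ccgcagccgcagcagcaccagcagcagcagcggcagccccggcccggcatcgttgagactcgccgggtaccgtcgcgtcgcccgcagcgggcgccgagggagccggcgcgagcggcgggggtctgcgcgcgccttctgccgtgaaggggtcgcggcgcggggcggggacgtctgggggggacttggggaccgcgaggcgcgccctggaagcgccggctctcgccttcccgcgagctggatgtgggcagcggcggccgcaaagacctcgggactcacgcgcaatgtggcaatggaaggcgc
Hhip: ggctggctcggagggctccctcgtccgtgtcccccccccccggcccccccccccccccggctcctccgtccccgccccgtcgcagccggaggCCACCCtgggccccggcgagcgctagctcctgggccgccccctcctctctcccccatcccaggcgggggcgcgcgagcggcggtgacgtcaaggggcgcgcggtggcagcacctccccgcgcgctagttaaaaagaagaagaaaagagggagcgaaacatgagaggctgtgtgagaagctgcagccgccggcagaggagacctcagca
Foxf2: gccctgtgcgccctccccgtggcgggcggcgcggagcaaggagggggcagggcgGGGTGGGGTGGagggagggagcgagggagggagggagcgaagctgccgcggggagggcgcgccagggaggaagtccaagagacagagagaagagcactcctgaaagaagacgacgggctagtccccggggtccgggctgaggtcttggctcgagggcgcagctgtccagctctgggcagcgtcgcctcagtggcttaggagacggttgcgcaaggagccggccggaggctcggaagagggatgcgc
Gli3: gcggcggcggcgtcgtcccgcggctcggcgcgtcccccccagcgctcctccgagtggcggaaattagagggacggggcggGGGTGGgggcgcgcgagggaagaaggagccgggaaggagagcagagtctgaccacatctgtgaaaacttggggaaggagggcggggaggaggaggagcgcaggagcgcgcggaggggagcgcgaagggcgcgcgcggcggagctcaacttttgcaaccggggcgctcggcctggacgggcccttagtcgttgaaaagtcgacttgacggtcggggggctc

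The full consensus GACCACCCA was found on neither strand of the 6 windows, and it occurs in 0.253% of the 32851 mouse promoters of the same length. The inner CCACCC was found in 5 of the 6 (Hhip, Smo, Gli2, Gli3 and Foxf2, not Ptch1) and in 31.5% of all promoters. These letters are also part of other GC-box motifs. The 6 windows had 67.3% to 76.3% G and C, against a median of 52.7% over all promoters. The letters therefore did not separate Gli3 from the genes that were higher.

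The matrix pools the 6 samples. Its cell barcodes carry 6 suffixes that no label ties to a sample, and these were used only as technical barcode sets, named A1, A2 and A3 (suffixes ending in 1) and B1, B2 and B3 (ending in 2). No map from cells to samples means 1 pooled sample, so no test between conditions was possible, and every interval below is a 95% interval for counting error only. After filtering, 12630 of 13127 cells remained, with 1177 to 2514 cells and medians of 3548 to 13574 unique molecular identifiers (UMIs) per cell in a set. Across all pairs of sets, 22 barcode sequences were shared, of which 19 were between endings. Sets A3 and B3 stood apart from the others of their ending: Pdgfra reached 939.2 and 408.3 CPM (UMIs of a gene scaled to a common total per set), against 105.3 to 173.1 CPM in the other 4. Mesenchyme markers (8 genes, all detected in every set) summed to 5917.6 CPM in A3 and 4913.8 in B3, against 8509.9 to 9829.6 CPM elsewhere, and smooth muscle markers (9, all detected) to 1147.3 and 783.6 CPM against 1540 to 2033.7 CPM. Mesothelium markers summed to 58.35 CPM in A3 against 12.5 to 12.6 in A1 and A2, and to 20.2 in B3 against 6.67 to 7.50 in B1 and B2, where Wt1 was at 0 in B1 and B3. Enteric neuron markers summed to 4.84 CPM in A3 and 1.34 in B3 (Elavl3 and Tubb3 among those at 0), against 31.8 to 87.7 CPM elsewhere. Erythroid markers summed to 25.3 to 36.2 CPM in ending A, with Alas2 at 0 in A3, and to 3712.3 CPM in B3 against 1790.1 to 1861 in B1 and B2. Pericyte markers summed to 176.9 CPM in A3 and 126.6 in B3 against 196.2 to 325.2 elsewhere. Epithelium markers (10 genes, all detected) summed to 1289.8 CPM in A3 and 118.1 in B3, against 228.4 to 246.6 in A1 and A2 and 50.5 to 50.7 in B1 and B2. Blood lineage markers (8 genes, all detected) summed to 103 and 86.8 CPM in A3 and B3 against 13.4 to 39.3 elsewhere, endothelium markers (8, all detected) to 92.9 and 77.5 against 25.5 to 34.2, and cycling markers (10, all detected) to 1076.5 and 537.1 against 1544.2 to 2270.2. Their part in the differences below was not tested, except where values are given.

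Both receptors were more abundant in A3 and B3 than in the other sets. Ptch1 (chr13:63508328-63573460), the receptor that holds Smo inactive, was the most abundant of the 9, at 463.9, 396.9 and 1056.6 CPM in A1, A2 and A3 and 500.6, 523.6 and 1039 CPM in B1, B2 and B3. Within each ending, set 3 lay well above the others, with no overlap of intervals. With each cell thinned to 2000 UMIs, Ptch1 was found in 48.4% to 54.8% of the cells of A1, A2, B1 and B2, and in 77.3% of A3 and 81.3% of B3. Without thinning the shares were 73.3% to 92.8% and 97.5% and 92.3%, so the receptor transcript was found in most cells of every set.

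Hhip (chr8:79965850-80058060), a membrane protein that binds Hedgehog ligand and limits its spread, stood at 46.95, 49.4 and 152.5 CPM in A1, A2 and A3 and 34.2, 37.9 and 110.3 CPM in B1, B2 and B3. Its share of thinned cells was far lower than that of Ptch1, at 6.105% to 8.65% in the other sets against 19.4% in A3 and 16.2% in B3 (unthinned 11.65% to 30.6% against 39.85% and 24.99%). A cell with Hhip carried 3.02 Hhip UMIs on average in A3, and 1.98 and 2.23 in A1 and A2. Smo (chr6:29735497-29761366), the membrane protein that passes the signal on, differed little between sets of an ending, at 81.2, 87.7 and 77.7 CPM in A1, A2 and A3 and 58.0, 53.9 and 63.9 CPM in B1, B2 and B3.

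The 3 Gli factors took another course. Gli1 (chr10:127329882-127341579), an activator and itself a target, was at 62.6, 58.9 and 54.8 CPM in A1, A2 and A3 and at 100.0, 87.7 and 67.8 CPM in B1, B2 and B3. The lowest Gli1 level of each ending was in the set in which Ptch1 and Hhip were highest, although the intervals of A2 (56.1 to 61.8) and A3 (50.1 to 59.8) overlapped. Gli3 (chr13:15463723-15730026), whose processed form is a repressor, was at 69.3, 69.9 and 30.25 CPM in A1, A2 and A3 and 47.9, 50.4 and 24.6 CPM in B1, B2 and B3. Gli2 (chr1:118834061-119054405), the main activator in many tissues, was rarest, at 23.3, 18.3 and 12.4 CPM in A1, A2 and A3 and 11.3, 10.3 and 8.41 CPM in B1, B2 and B3. Gli2 was found in 1.61% to 4.68% of thinned cells, and at this depth its levels in single cells carry little information.

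The forkhead genes resembled the receptors. Foxf1 (chr8:121084386-121088154), needed for growth of the gut mesenchyme, was at 311.5, 352.3 and 479.3 CPM in A1, A2 and A3 and 176.7, 180.9 and 348.6 CPM in B1, B2 and B3. Foxf2 (chr13:31625816-31631406), its close relative, was at 79.7, 68.7 and 153.7 CPM in A1, A2 and A3 and 52.3, 60.7 and 141.1 CPM in B1, B2 and B3. Foxl1 (chr8:121127685-121130644) was at 24.2, 20.5 and 72.6 CPM in A1, A2 and A3 and 26.3, 26.6 and 73.9 CPM in B1, B2 and B3. All 3 were highest in set 3 of their ending, without overlap of intervals. Foxl1 was found in 12.8% and 14.6% of thinned cells of A3 and B3, against 3.70% to 5.83% in the other sets (unthinned 38.6% and 23.2% against 10.4% to 22.1%).

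**Figure D1:**
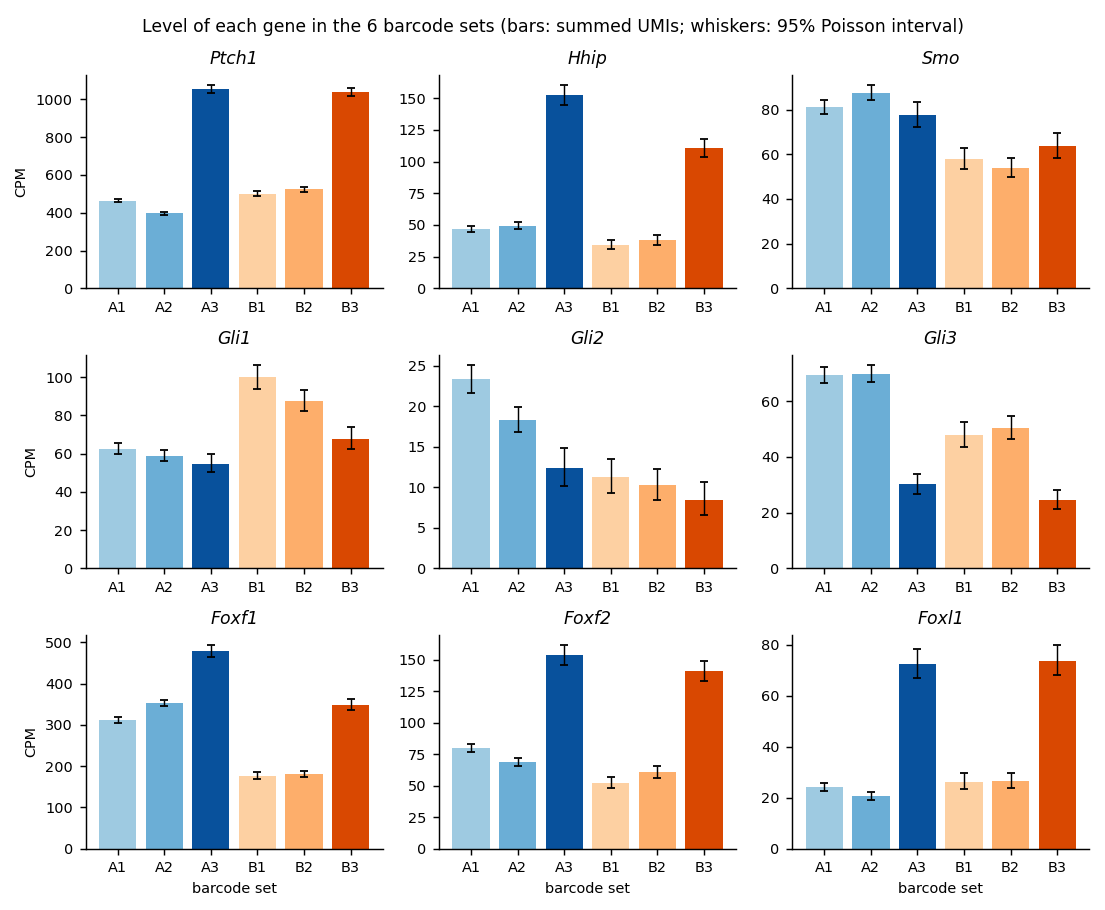
Level of each of the 9 genes (CPM, linear axis from 0) in the 6 barcode sets; bars are summed UMIs over the set's total and whiskers are 95% Poisson intervals for counting error. Within each ending, Ptch1, Hhip, Foxf1, Foxf2 and Foxl1 are highest in set 3 and Gli3 is lowest there, and Smo is nearly level within an ending.

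Set 3 was compared with sets 1 and 2 of the same ending, summed, and a gene was called at 2-fold or more if it had at least 20 CPM on 1 side. In ending A, 4 of the 9 genes were called higher, where 9.64% of all 7417 genes past the minimum were. They were Foxl1 (log2 ratio 1.70, 1.56 to 1.83), Hhip (1.66, 1.57 to 1.76), Ptch1 (1.29, 1.26 to 1.33) and Foxf2 (1.05, 0.96 to 1.13). In ending B the same 4 genes were called among the 8 with enough UMIs, where 8.64% of 6410 genes were: Hhip at 1.61 (1.47 to 1.75), Foxl1 at 1.48 (1.31 to 1.65), Foxf2 at 1.31 (1.20 to 1.43) and Ptch1 at 1.02 (0.98 to 1.06). Both endings together called 6.25% of 6129 genes higher in A3 and B3. Because the 9 genes were chosen with earlier results of these data known, their share beside that of all genes is a description only. Foxf1 lay under the threshold at 0.53 (0.49 to 0.58) in A and just under it at 0.96 (0.89 to 1.03) in B.

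Gli3 was the only one of the 9 called lower in A (log2 ratio -1.20, -1.38 to -1.03), where 5.65% of all genes were. In B its fold was 0.5001 (log2 interval -1.22 to -0.78), just short of the threshold, where 5.38% of all genes were called lower, and 3.25% were called lower in both endings. Gli1 was at -0.15 (-0.29 to -0.02) in A and -0.46 (-0.60 to -0.33) in B, and Smo at -0.12 and 0.19. Gli2 was at -0.76 (-1.04 to -0.48) in A and, below the minimum level, -0.35 (-0.76 to 0.04) in B. The median log2 ratio was 0.53 over the 9 genes in A and 0.99 over the 8 in B, against -0.05 and 0.12 over all genes past the minimum.

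Most of these ratios were also present among cells with no Pdgfra UMI after thinning. In ending A they were 1.22 for Ptch1, 1.79 for Hhip, 1.00 for Foxf2 and 1.47 for Foxl1, all still called, and in ending B 1.05, 1.93, 1.43 and 1.75, with Foxf1 also called at 1.04. Gli3 was at -0.64 in A and -0.96 in B in these cells. This ends its call in A, where Gli2 (-1.13) was called lower in its place. These cells made up 22.32% of A3 and 47.5% of B3, and they can still hold Pdgfra, because thinning removes UMIs. In cluster 1 of B (described below), Pdgfra was found in 70.11% of cells before thinning and in 51.89% after. Whether the ratios depend on Pdgfra was therefore not tested by this choice of cells. Among the cells of A3 below that set's middle for epithelium markers, Ptch1 was at 1.26, Hhip at 1.41 and Foxl1 at 1.56, and Foxf2 at 0.98 was no longer called. For the cells of B3 chosen the same way, Ptch1 was at 1.03, Hhip at 1.62 and Foxf2 at 1.35, and the same 4 genes were called. Among cells with no Mki67 or Top2a UMI, Gli3 was at -1.71 in A and -1.17 in B, and Ptch1 at 1.37 in A but 0.90 in B, which ends its call there. Ptch1 in ending B and Foxf2 in ending A lay close to the threshold. With B2 alone as the reference or with per-cell means, 3 genes were called higher in B, and with A1 alone as the reference 3 were called in A, where Foxf2 was at 0.95.

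**Figure D2:**
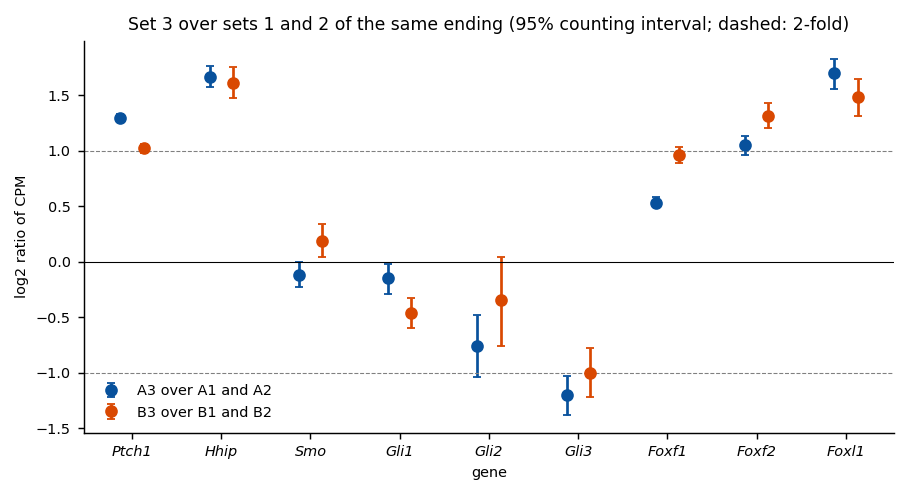
Log2 ratio of CPM of set 3 over sets 1 and 2 of the same ending, with 95% conditional binomial intervals; dashed lines mark 2-fold. Hhip and Foxl1 lie between 1.48 and 1.70 in both endings, while Gli1, Gli2 and Gli3 lie below 0 in both.

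Other pathway genes were listed by role, also with earlier results of these data known. Among the ligands and the proteins that release them (8 genes), 2 had enough UMIs in each ending, and both were called higher in both: Scube3 (log2 ratio 4.18 in A and 2.78 in B) and Scube1 (2.59 and 2.11), secreted proteins that help carry Hedgehog ligand. Scube3 stood at 1.95 CPM in A1 and A2 summed and 35.3 CPM in A3. The epithelial ligands were scarce: Shh was at 3.55 CPM and Ihh at 4.09 CPM in A3, and Shh at 1.22 and Ihh at 1.10 CPM in B3, with at most 0.52 CPM in the summed other sets, whereas Dhh had 1 UMI in each ending. Scube2 went the other way below the minimum level, at 2.37 CPM in A3 against 11.3 CPM, and 2.44 CPM in B3 against 11.7 CPM. Disp1 and Hhat, needed for ligand release and lipid attachment, lay between 6.14 and 10.8 CPM with log2 ratios from -0.24 to 0.04.

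Of the co-receptors and binding proteins (6 genes), Gas1 and Gpc3 passed the minimum. Gas1, a membrane co-receptor that promotes ligand binding, was called lower in both endings, at 19.3 CPM in A3 against 129.5 CPM (log2 ratio -2.75, -2.97 to -2.53) and 7.19 CPM in B3 against 42.1 CPM (-2.55, -2.95 to -2.17). Gpc3, a proteoglycan that competes for ligand, was abundant and nearly level at 0.08 and 0.13. Below the minimum, the log2 ratios in A and B were -1.09 and -0.25 for Cdon, and 0.77 and 0.30 for Boc. Lrp2 had 16 UMIs or fewer on either side of each comparison.

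No gene of the list for signal transduction and the cilium (20 genes) was called in either direction, where 15.3% of all genes were in A and 14% in B. With only 14 genes of the list past the minimum in A and 11 in B, this is a description only. The medians of the list were -0.07 and 0.27. The largest log2 ratios were 0.25 in A, both for Grk2, a kinase acting on Smo, and for Csnk1a1, a kinase acting on Gli proteins, and 0.42 in B for Gsk3b, another such kinase. The smallest was -0.73 in A for Evc2, a ciliary protein that helps Smo signal, and -0.24 in B for Mosmo, which attenuates Smo. Among 8 other reported targets, 6 passed the minimum in A and 5 in B. Bmp4, a signalling ligand of the gut mesenchyme, was called higher in A (1.26) and lay at 0.91 in B. Mycn (-1.85) and Ccnd1 (-1.51), which drive growth and the cell cycle, were called lower in A, and Ccnd1 lay at -0.81 in B. These 2 genes differed in the direction of the cycling markers.

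Of the neighbours of the forkhead genes, Fendrr and Foxq1 gave larger ratios than the 3 forkhead genes, and the others did not. Fendrr (chr8:121054882-121083110), a long noncoding RNA gene on the minus strand whose start lies 1275 bases from Foxf1, was at 71.6 CPM in A1, 66.1 in A2 and 266.4 in A3 (log2 ratio 1.95, 1.88 to 2.02). It is listed at 0 in all of ending B, where the gene lists of the endings differ, so no value is taken from B. Foxl1 lies 39530 bases beyond Foxf1, and of the genes between them Mthfsd was near level (0.03 in A and 0.31 in B, under the minimum) and Foxc2 had 17 UMIs or fewer on either side. Foxq1 (chr13:31558170-31560976), a forkhead gene 64839 bases from Foxf2, was at 6.38, 5.22 and 160.4 CPM in A1, A2 and A3 and 33.5, 35.8 and 177.1 CPM in B1, B2 and B3. Its log2 ratios were 4.78 in A and 2.35 in B. Foxp2 was called lower in both endings (-1.94 and -1.89), Foxp1 lay at -0.46 and -0.09, and Gmds at 0.29 and 0.02. Of the 11 genes of this list, 5 passed the minimum in A and 3 in B.

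The genes were next compared with Pdgfra within each set, at 2000 UMIs per cell. Cells with 3 or more Pdgfra UMIs (41, 22, 399, 33, 27 and 150 cells in A1, A2, A3, B1, B2 and B3) were set against cells with 0. Ptch1 and Foxf1 were higher in the Pdgfra-rich cells of all 6 sets, where 5.44% of 7184 genes were, and none of the 9 was lower in all 6, where 7.8% of genes were. With cells thinned to 1500 UMIs, Foxf1 was higher in only 5 of 6 sets, which ends its call, and Foxl1 was higher in 6. The minimum was 20 CPM on the higher side with the cells of the 6 sets summed. A gene near it has few UMIs in a set with 22 Pdgfra-rich cells and can hardly be called. Ptch1 and Foxf1 were the most abundant of the 9, and the part of abundance in these calls was not tested. Gli2 did not reach the minimum. The median of the log2 ratios over sets was 0.57 for the other 8 genes and -0.02 for all genes.

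Ptch1 in Pdgfra-rich and Pdgfra-0 cells stood at 1000 and 427 CPM in A1, 636 and 375 in A2, 1179.2 and 906.5 in A3, 1454.5 and 463.8 in B1, 944 and 496 in B2, and 1296.7 and 966.6 in B3. Its log2 ratio was between 0.38 (A3) and 1.65 (B1), and all 6 intervals lay above 0. Pdgfra-0 cells of A3 thus lay above Pdgfra-rich cells of A2 (28 UMIs in 22 cells) and below those of A1. Pdgfra-0 cells of B3 held about as much as Pdgfra-rich cells of B2 and less than those of B1. Foxf1 had log2 ratios from 0.14 (B3) to 1.32 (B1), with 4 of 6 intervals above 0.

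Foxl1 and Foxf2 were higher in 5 of 6 sets and Hhip in 4, and the exceptions were sets A3 or B3. Foxl1 was at 109.8 CPM in Pdgfra-rich cells of A1 against 16.5 CPM in Pdgfra-0 cells (9 and 60 UMIs), but at 76.7 against 79.8 CPM in B3. Hhip was at 121 against 30.0 CPM in B1 and at 168 against 196.6 CPM in A3. Smo was higher in 5 of 6 sets, with 1 interval above 0, but in 3 sets with cells thinned to 1500 UMIs and in 1 with 3000. Gli1 was lower in 5 of 6 sets with ratios of -0.65 to 0.01, and no Gli1 interval lay below 0. With 1 or more Pdgfra UMIs as the threshold, Gli1 was higher in 4 sets. Gli3 was lower in 5 of 6, but in 3 with cells thinned to 1500 UMIs. Only in A3 did the Gli3 interval lie below 0 (-1.16, -2.14 to -0.22). In set B1, Gli3 had 0 UMIs in 33 Pdgfra-rich cells.

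Across thinned cells of a set, Pearson's r with Pdgfra UMIs ranged from 0.08 to 0.23 for Ptch1 and from 0.04 to 0.14 for Foxf1, over 1174 to 2504 cells. For the other 7 genes it lay between -0.07 and 0.10. These are correlations of sparse counts in cells that share a library. Before thinning, 46.3% of the Pdgfra-rich cells had no Mki67 or Top2a UMI in A1 and 93.9% in B1, against 31.4% and 56.7% of Pdgfra-0 cells. The Pdgfra-rich cells were also shallower, with medians of 9162 against 12287 UMIs in A1 and 3687 against 4278 in B1. The part of depth in these shares was not tested.

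**Figure D3:**
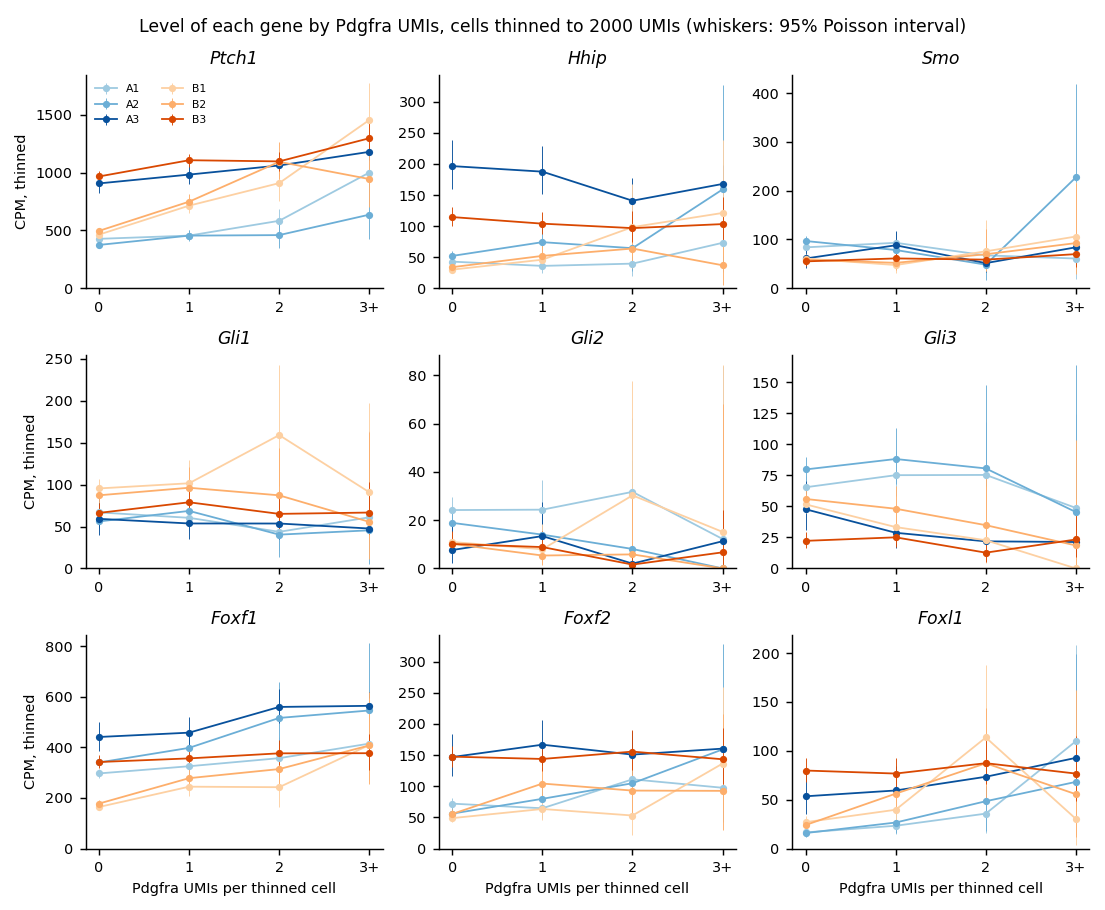
Level of each gene (CPM of thinned cells, linear axis from 0) by the number of Pdgfra UMIs in the cell, 1 line for each barcode set, with 95% Poisson intervals. Ptch1 and Foxf1 are higher at 3 or more UMIs than at 0 in all 6 sets, while the Hhip, Foxf2 and Foxl1 lines of B3 are nearly flat.

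The balance of the Gli factors was taken as the share of each in their summed UMIs, which does not depend on the CPM total. UMIs count transcripts by their 3' ends, so no division by gene length was made, but capture can differ between genes. Gli1 made up 47.6% (46.8 to 48.5) of 14015 Gli UMIs, Gli3 40.5% and Gli2 11.8%. By set the Gli1 share was 40.3%, 40.03% and 56.2% in A1, A2 and A3 and 62.8%, 59.1% and 67.2% in B1, B2 and B3. It was highest in set 3 of each ending, and all of ending B lay above A3, although the interval of B2 (56.7 to 61.5) overlapped that of A3 (52.9 to 59.5). The Gli3 share ran the other way, at 44.6%, 47.5% and 31.1% in A1, A2 and A3 and 30.1%, 34.0% and 24.4% in B1, B2 and B3. Because Gli1 itself was not higher in A3 or B3, the larger Gli1 share there came with a lower Gli3 level.

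Within sets the share did not follow Pdgfra in 1 direction. In A3 it was 54.1% (48.2 to 59.9) in Pdgfra-0 and 59.9% (53.0 to 66.6) in Pdgfra-rich cells, and in B3 64.4% (59.6 to 69.1) and 67.4% (52.0 to 80.5). It was lower in the Pdgfra-rich cells of A1 (37.1% against 40.7%) and A2 (36% against 39.3%), with overlapping intervals. In B1 it was 93.75% (69.8 to 99.8) of only 16 Gli UMIs, against 61.2% (58.5 to 63.8) in Pdgfra-0 cells, and in B2 5 of 6 Gli UMIs were Gli1. Gli3 was higher in cells with cycling transcripts in 4 of 6 sets: cells with a Mki67 or Top2a UMI held 39.2 CPM against 21.8 CPM in A3 (log2 ratio 0.85, 0.49 to 1.21) and 49.98 against 19.4 CPM in B3 (1.36, 0.93 to 1.79). The ratio was 0.39 (0.12 to 0.65) in B1 and 0.29 (0.05 to 0.54) in B2, and -0.06 and -0.02 in A1 and A2. Hhip was lower in the cycling cells of A3, at 105.5 against 196.8 CPM (-0.90, -1.06 to -0.74), and Foxl1 lower in those of B1 (-0.84) and B3 (-0.50).

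Whether Ptch1, Hhip and Foxl1 fell in the same cells was asked at 2000 UMIs per cell, with the expected number of cells taken within each set from the product of the shares. Over 12589 cells, 910 held both Ptch1 and Hhip against 786.7 expected, a ratio of 1.16 (1.08 to 1.23). Ptch1 and Foxl1 met in 726 cells against 606.1 expected (1.20, 1.11 to 1.29), and Hhip and Foxl1 in 151 against 110 (1.37, 1.16 to 1.61). All 3 were found in 129 cells against 79.6 expected (1.62, 1.35 to 1.93), which is 1.02% of cells, while 63.1% held at least 1 of them. By set, the ratio for all 3 was 3.21, 2.795 and 1.24 in A1, A2 and A3. It was 1.21, 4.44 and 1.32 in B1, B2 and B3, and the intervals of A3, B1 and B3 included 1. Over all sets, co-detection of the pairs exceeded the product of the shares by a modest amount. Most cells with Hhip or Foxl1 lacked the other: with the cells of all sets pooled, 12.5% of Hhip cells had Foxl1, against 6.68% of cells without Hhip. Both genes were found in more cells of A3 and B3, so these pooled shares, unlike the ratios, also carry differences between sets.

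Where most cells of a set hold Ptch1, as in A3 and B3, the ratio has little room above 1, so its size is not compared between sets. For Ptch1 and Hhip the ratio was 1.28, 1.26 and 1.00 in A1, A2 and A3 and 1.40, 1.37 and 1.06 in B1, B2 and B3. For Ptch1 and Foxl1 it was 1.42, 1.40 and 1.00 in A1, A2 and A3 and 1.40, 1.49 and 1.07 in B1, B2 and B3. In A3 and B3, where about 8 in 10 thinned cells held Ptch1, the intervals of both pairs included 1. For Hhip and Foxl1 the ratio was 2.31 (14 cells), 2.103 (14), 1.20 (35), 0.896 (7), 2.55 (23) and 1.13 (58) in A1, A2, A3, B1, B2 and B3. By Pdgfra UMIs, with the same limit, the Ptch1 and Hhip ratio was 1.23 in cells with 0, 1.09 in cells with 1 to 2 and 1.01 in cells with 3 or more. With the expected number summed over clusters within sets, an alternative chosen after seeing the data, the ratios were 1.07 (1.005 to 1.15) for Ptch1 and Hhip, 1.07 (0.996 to 1.15) for Ptch1 and Foxl1, and 1.23 (1.04 to 1.44) for Hhip and Foxl1. The interval for Ptch1 and Foxl1 then included 1.

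Other pairs gave both directions. Hhip and Foxf2 met more often than the product of the shares (1.29, 1.14 to 1.45), as did Hhip and Gli1 (1.20, 1.03 to 1.39) and Ptch1 and Gli1 (1.11, 1.05 to 1.18). Gli3 and Foxl1 met less often (43 cells against 69.5 expected, 0.619, 0.448 to 0.834), as did Gli2 and Hhip (15 against 28.9, 0.519, 0.290 to 0.856), Gli2 and Foxf2 (0.634, 0.428 to 0.905) and Ptch1 and Gli3 (0.890, 0.820 to 0.965). All 8 pairs of Smo with another of the 9 genes had intervals that included 1.

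**Figure D4:**
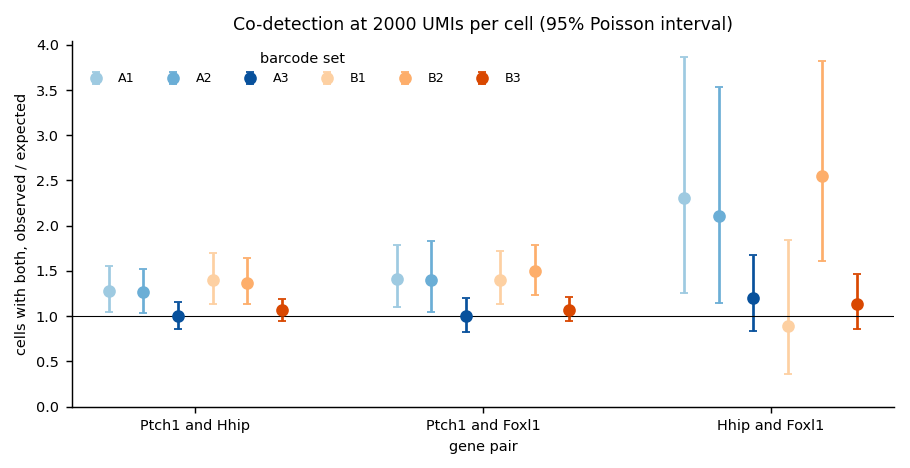
Observed over expected number of cells with both genes of a pair at 2000 UMIs per cell, by barcode set, with 95% Poisson intervals; the line at 1 is the product of the 2 shares. Both pairs with Ptch1 lie at 1.00 to 1.07 in A3 and B3, where most cells hold Ptch1 and the ratio has little room above 1, and at 1.26 to 1.49 in the other 4 sets.

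Cells were clustered in each ending without the 9 genes, the pathway lists and Pdgfra, which gave 27 clusters of at least 50 cells (16 in A, 11 in B). A cluster with at least 3 of 10 markers of PDGFRA-high mesenchyme at 2-fold or more is called here a PDGFRA-marker cluster: clusters 1, 3 and 13 of A and 1, 2 and 4 of B. In A, 90.3% to 94.0% of their cells are from A3, and in B, 60.7% to 78.2% are from B3, so in A each of them is mostly 1 set. Epithelium markers were 2-fold or more higher for 7 to 9 of 10 genes in the 3 clusters of A and for at most 1 in those of B. Blood lineage markers were 2-fold or more higher for 7 of 8 genes in cluster 3 of A (164.3 CPM summed), for 4 in clusters 1 and 13 of A and for 0 in those of B. Their part in the levels below was not tested. No cluster of another lineage was clean enough to give a background from free RNA: a group of 36 cells with glial and neuronal markers still held 7840.1 CPM of mesenchyme markers.

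Ptch1, Foxf1, Foxf2 and Foxl1 were highest in PDGFRA-marker clusters in both endings, but at clustering resolution 2 this held for 3 of them and not for Ptch1. The share of all genes highest in such clusters was not taken, so this count is a description only. Some other clusters came close. Cluster 9 of A held Ptch1 at 863.8 CPM and Foxl1 at 59.7 CPM, against 878.3 and 60.5 CPM in PDGFRA-marker cluster 1. In B, clusters 8 and 3 held Ptch1 at 935.7 and 902 CPM, against 1050.5 CPM in PDGFRA-marker cluster 2. Ptch1 led in cluster 3 of A (Opcml, Cd38, Elovl7, Adamts18; 445 cells) at 1361.4 CPM and cluster 4 of B (Npnt, AW112010, Col18a1; 586 cells) at 1139.8 CPM. Among the PDGFRA-marker clusters, Hhip and Foxl1 peaked in different ones. In A, cluster 1 (Il1rl1, Npnt, Slco2a1; 481 cells) held Hhip at 348.8 CPM and Foxl1 at 60.5 CPM, whereas cluster 3 held Hhip at 74.8 CPM and Foxl1 at 120.1 CPM. In B, cluster 4 held Hhip at 179.2 CPM and Foxl1 at 68.5 CPM, and cluster 2 (Gadd45a, Cpne8, Opcml; 1080 cells) Hhip at 53.1 CPM and Foxl1 at 79.1 CPM. Clusters 1 of A and 4 of B both had Npnt, Slco2a1 and Spock3 among their 10 leading genes, and 3 of A and 2 of B both had Opcml and F2rl1, but cluster 1 of B (1201 cells) shared as many with cluster 3 of A (Elovl7 and Bdkrb2) and held Hhip at 117.8 CPM and Foxl1 at 73.3 CPM. Which clusters of the endings correspond was not tested. The Foxl1 intervals of clusters 4 and 2 of B (57.5 to 81.1 and 70.8 to 88.1) overlapped.

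The highest Hhip level in A was outside the PDGFRA-marker clusters. Cluster 15 of A (Igfbp3, P2rx1, Mmp10; 56 cells) held Hhip at 764.2 CPM (684.8 to 850.3), in 57.1% of thinned cells, with Pdgfra at only 99.8 CPM. Its cells came from A1 (48.2%) and A2 (46.4%). In this cluster Ptch1 was at 544.2 CPM and Foxl1 at 20.4 CPM (9.33 to 38.7), near the medians of the clusters of A, 428.4 and 21.2 CPM, and Foxf2 was at 149.7 CPM, against a median of 75.4 CPM.

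At the other end, cluster 8 of A (Dpt, Aspn, Mgp; 352 cells) had the lowest levels in that ending of Ptch1 (199.4 CPM), Hhip (6.99), Gli1 (37.6), Foxf1 (179.1), Foxf2 (18.6) and Foxl1 (1.66, 5 UMIs), with mesenchyme markers 39726.2 CPM. Smo (96.9 CPM) and Gli2 (28.3 CPM) were highest there. Cluster 10 of B (Gdf10, Cdo1, Scx; 81 cells) had the lowest levels in its ending of the same 6 genes and of Smo. Gli1 and Foxl1 had 0 UMIs in its 81 cells, which allows up to 5.81 CPM for each and a share of cells with a UMI of up to 3.70%, while Gli1 lay between 58.9 and 116.0 CPM in the other 10 clusters of B. Gli3, at 102.5 CPM (76.8 to 134.1), was highest there, and Ptch1 was still at 104.5 CPM. Pericyte markers summed to 754.4 CPM in this cluster and cycling markers to 4747.2 CPM, and their part in these levels was not tested. Gdf10, Cdo1 and Scx also led a cluster of 19 cells in A, too small for the comparison, in which Gli1 had 2 UMIs, Foxl1 0 and Gli3 27 (107.1 CPM).

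Gli3 and Gli1 were spread differently over the clusters. In A, Gli3 was highest in cluster 0 (Sptssb, Ogn, Gas1; 667 cells) at 103.1 CPM and lowest in cluster 3 at 17.3 CPM, the cluster with most Ptch1. Gli1 was highest at 91.0 CPM in cluster 9 of A (Apela and histone genes) and 116.0 CPM in cluster 3 of B (Kcnk2, Apela), where Ptch1, Hhip and Foxl1 were above the median. Smo varied least, by 1.55-fold between its highest and lowest cluster in A and 1.88-fold in B, against 6.83-fold and 10.9-fold for Ptch1.

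**Figure D5:**
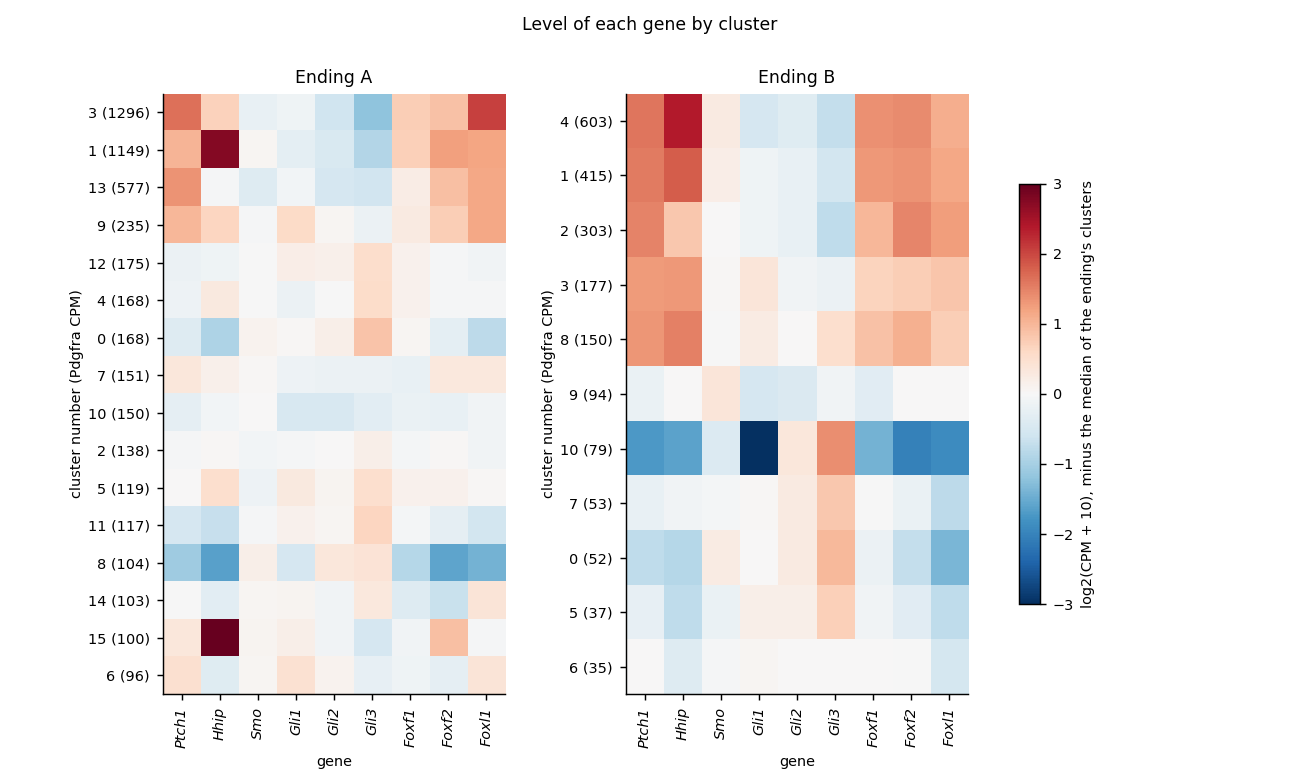
Level of the 9 genes in clusters of at least 50 cells, as log2(CPM + 10) minus the median of the ending's clusters, with colours limited to 3 in either direction; rows are ordered by Pdgfra CPM, given in brackets. The rows with most Pdgfra are high for Ptch1, Foxf1, Foxf2 and Foxl1 and low for Gli3; cluster 15 of A is high for Hhip with little Pdgfra, and cluster 10 of B has no Gli1 UMI.

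Over the 27 clusters, with log2(CPM + 10) centred within each ending, Pearson's r was 0.97 between Ptch1 and Foxl1, 0.93 between Ptch1 and Foxf2, 0.90 between Ptch1 and Foxf1, and 0.70 between Ptch1 and Hhip. It was 0.47 between Ptch1 and Gli1, 0.06 between Ptch1 and Smo, -0.69 between Ptch1 and Gli2 and -0.83 between Ptch1 and Gli3, while Gli2 and Gli3 gave 0.84. These values describe points that share libraries and were made from the same cells. Among 7298 genes, the 3 most like Ptch1 were Foxl1, Ednrb (0.96) and Nbl1 (0.95), and the 3 most like Foxl1 were Ptch1, Ednrb (0.95) and Tcf4 (0.94). Hhip was most like Eva1a (0.94), Ackr3 (0.91) and Atoh8 (0.89), Foxf1 like Dock9 (0.97), Foxf2 and Synpo2 (0.91 each), and Foxf2 like Id3 (0.94), Ptch1 and Mid1ip1 (0.93 each). Gli3 was most like Asnsd1 (0.92), Mcc and Meis2 (0.91 each), and Gli2 like Gli3, Mcc (0.81) and Trim24 (0.79). Gli1 (Tmem256 0.81, Fbxl7 0.75, Mical1 0.72) and Smo (R3hdm4 and Vps9d1 0.77 each, Zfp322a 0.75) had lower values. With Spearman's rho, 11 of these 27 names were the same.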

How the data were processed

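The authors deposited 1 matrix of UMI counts, whole numbers with no normalization in the values. Cells were marked by MULTI-seq and captured with 10x 3' chemistry, version 3, per the labels' protocols. Cell Ranger 2.1.1, Seurat and mm10 are named in the submitters' processing notes, with no settings. Symbols counted differ between endings (21351 in A, 18222 in B, 17403 in both), so sets were compared within an ending.

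Cells with under 1000 genes (108) or over 5% mitochondrial UMIs (367) were left out, with 60 doublets called by Scrublet in scanpy 1.11.5 (0.457%). That share is too low to rely on, and doublets may remain. CPM, shares of cells and log2 ratios carry exact Poisson, Clopper-Pearson and conditional binomial 95% intervals (scipy 1.17.1), for counting error only, and a count of 0 allows up to 3 counts. Clusters used 2000 variable genes, 30 components, 15 neighbours and leidenalg 0.10.2 at resolution 1 in each ending; the rule for PDGFRA-marker clusters was set after seeing the data. On simulated Poisson counts with 200 changed genes, direction was recovered for 100% of them. Intervals held the true ratio for 95.5% of 6700 genes (A3 over A1 and A2) and 95.4% of 5749 genes (B3 over B1 and B2). The intervals assume such counts, so this checks the calculation only. It does not cover the spread of UMIs between cells or libraries.

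Members and lists were chosen with earlier results of these data known. Named were all 9 genes, all ligand and co-receptor genes, up to 3 genes at each end of the other lists, the 3 most alike genes per member, and the highest and lowest clusters. Some genes of the co-receptor and marker lists are not reported here. Alternatives varied the cell filter, weights, reference sets, cycling cells, gene totals, minimum level, thinning depth, Pdgfra threshold, resolution and likeness measure. Those added after seeing the data were cells without Pdgfra UMIs, cells low in epithelium markers, and expected numbers over clusters.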

Additional observations from a re-analysis of the deposited data

How the results depend on the processing

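The number of genes at least 2-fold higher stayed at 3 or 4 in ending A and at 3 to 5 in ending B under every alternative. Of 90 single ratios under alternatives in A, 61 stayed inside the counting interval and 1 changed sign (Gli1 in cells with 0 thinned Pdgfra UMIs, 0.08). Of 90 in B, 82 stayed inside and 0 changed sign. In B, 1 gene (Gli3) in place of 0 was called lower with doublets kept (with or without the cell filter), per-cell means, B2 alone as the reference, cells without Mki67 or Top2a UMIs, and cells of B3 low in epithelium markers. In A, 2 genes (Gli2 and Gli3) in place of 1 were called lower in cells without Mki67 or Top2a UMIs. The number of genes higher in Pdgfra-rich cells of all 6 sets was 2. It became 4 with cells thinned to 3000 UMIs, and 4 with 2 or more Pdgfra UMIs as the threshold. With all UMIs and a threshold of 1 in 1000 it was also 4. Foxf2 and Foxl1 were added in each of these settings. The number was 3 in cells without Mki67 or Top2a UMIs (Smo added), although Smo was higher in only 1 set with 3000 UMIs. With 1500 UMIs it was 2, with Foxl1 in the place of Foxf1. The number rests on as few as 22 cells in a set. The Gli1 share of 47.64% became 54.29% with sets weighted equally. The pooled share weights each set by its Gli UMIs. Sets A1 (4796) and A2 (4227) held most of the 14015 and had the lowest Gli1 shares. The share was 53.09% in cells with no Mki67 or Top2a UMI and 52.9% in thinned cells (the cause was not tested). With expected numbers over clusters within sets, Ptch1 with Hhip moved to 1.073 and Ptch1 with Foxl1 to 1.072. Genes highest in a PDGFRA-marker cluster numbered 4, and 3 at resolution 2, without Ptch1, with no share over all genes to set beside them. No paired analysis was possible because cells could not be assigned to samples and no test was made. Depth limits Gli2 most, with 69 to 721 UMIs per set.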
